A study of Mus musculus with 2 samples.

Results

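The Hippo effectors and YAP targets were a set of 10 listed mouse genes. They were the co-activator genes Yap1 and Wwtr1, the DNA-binding partner genes Tead1, Tead2, Tead3 and Tead4, the kinase gene Lats2, and the reported target genes Ctgf, Cyr61 and Ankrd1. Members were taken as the rows of the deposited gene table whose symbol is a listed name. Of the 10 genes, 9 were found among 12557 genes, and Tead1 had 2 entries. Tead4 was not measured. The set was chosen by name, with the RPKM values and ratios of these same libraries known, so their values are given as a description. Every gene of the table reaches 1 RPKM (reads per kilobase of exon, scaled to library size) in at least 1 library.

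The cells were sorted from the sinoatrial node, the pacemaker region of the heart, of ICR mouse embryos. The 2 genotypes were Hcn4-CreERT2 with Isl1 f/f and Rosa-tdTomato (the Isl1 mutant) and Hcn4-CreERT2 with Isl1 +/+ and Rosa-tdTomato (the control). Both groups therefore carried the tamoxifen-inducible Cre driven from Hcn4 and the red reporter, and both received tamoxifen at E10.5, with tissue taken 36 hours later (a harvest labelled E12.5). Recombination and the reporter mark only cells that expressed Hcn4-CreERT2 when tamoxifen was active, so the sort rests on that driver. Embryos of 1 genotype were pooled, cells bearing the endothelial protein CD31 were removed with beads, and tdTomato-positive cells were sorted. Each genotype has 1 library, so there is no replicate error and no test. Values describe these libraries, and intervals beside a fold are exact 95% binomial intervals for counting error only, since copies made by PCR are not independent molecules.

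In the Hippo pathway, the kinases Stk3 and Stk4 (MST2 and MST1) activate Lats1 and Lats2, which phosphorylate the co-activators YAP and TAZ (the products of Yap1 and Wwtr1) and keep them out of the nucleus. Unphosphorylated YAP and TAZ have no DNA-binding domain of their own and act on genes through the TEAD factors, which bind a short motif with the letters GGAATG. Ctgf, Cyr61 and Ankrd1 are widely used readouts of YAP and TAZ, and other inputs such as TGF-beta and mechanical load act on them too. In the developing heart the pathway limits the growth of heart muscle.

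Upstream sequence is shown for Ankrd1 and Cyr61, the reported targets with the highest levels, since they differed in opposite directions between the libraries. Each line holds the 250 bases before the RefSeq start site on GRCm38.p6, read 5′ to 3′ on the gene's strand, matched by symbol (Cyr61 is named Ccn1 there). Capitals mark GGAATG or its complement CATTCC. The windows are chr19:36119845-36120094 on the minus strand for Ankrd1 and chr3:145649986-145650235 on the minus strand for Cyr61.
Ankrd1: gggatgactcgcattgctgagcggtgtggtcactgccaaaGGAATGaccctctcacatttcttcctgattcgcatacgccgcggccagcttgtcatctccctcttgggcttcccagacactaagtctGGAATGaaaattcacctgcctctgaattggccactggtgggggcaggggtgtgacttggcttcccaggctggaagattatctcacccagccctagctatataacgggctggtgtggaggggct
Cyr61: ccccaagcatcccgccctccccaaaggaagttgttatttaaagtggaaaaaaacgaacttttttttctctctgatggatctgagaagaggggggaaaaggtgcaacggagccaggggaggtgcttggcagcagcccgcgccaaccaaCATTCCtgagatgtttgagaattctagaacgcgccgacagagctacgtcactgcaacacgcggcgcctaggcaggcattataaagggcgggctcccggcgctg

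The motif search covered both strands, and the motif does not overlap another searched one. The Ankrd1 window holds 2 matches, which begin 210 and 123 bases before the start site. The Cyr61 window holds 1 match, 103 bases before the start site. Of 32851 RefSeq windows of the same length, 12.6% hold at least 1 match and 1.02% hold 2 or more. Windows were found for 7 of the 10 members, with 11 windows in all because some genes have several start sites. At least 1 match was found in 7 of the 11 windows. These belong to 5 members, namely Ankrd1, Cyr61, Yap1, Wwtr1 and Tead3. The Wwtr1 windows overlap and hold the same match, and not every Tead3 window holds a match. The windows of Tead2 and Lats2 hold none of these letters. Ctgf, Tead1 and Tead4 have no entry among the windows.

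Isl1, the targeted gene, stood at 7.65 RPKM in control cells and 1.52 RPKM in mutant cells, or 5.02-fold lower. The labels do not say which part of Isl1 is floxed. The libraries held 110117186 control reads and 119018888 mutant reads. Over all genes, 32.8% had a higher value in the mutant library and 67.2% a lower one, and the median log2 ratio was -0.22. The median moved with level, from -0.45 for genes with a geometric mean of both libraries between 0.985 and 1.45 RPKM to 0.02 above 29.6 RPKM. In the lowest level range, below 0.985 RPKM, the median was -1.30. In the mutant library markers of working heart muscle were higher in 12 of 12 cases, with a summed level of 12794 RPKM in control cells and 18680 RPKM in mutant cells. Actc1 gave the largest part of that sum (5374 and 8539 RPKM). Pacemaker markers were lower in 7 of 7 measured cases (summed 104 and 48.1 RPKM), with Hcn4 itself at 1.99 and 0.541 RPKM. These include the targeted gene Isl1, without which 6 of 6 were lower (96.6 and 46.6 RPKM), and Bmp4 gave the largest part of the sum (53.0 and 24.7 RPKM). Markers of fibroblasts and mesenchyme were lower in 10 of 10 cases (508 and 222 RPKM), of endothelium in 5 of 5 (20.3 and 9.49 RPKM), of macrophages in 7 of 7 (42.2 and 7.70 RPKM) and of red cells in 9 of 9 (399 and 68.9 RPKM). Epicardial markers were higher in 5 of 8 cases (116 and 149 RPKM), most of all Krt19 (9.77 and 28.8 RPKM) and Krt18 (17.9 and 27.9 RPKM). Wt1, Msln and Aldh1a2 were lower. Smooth muscle markers were higher in 4 of 5 cases (953 and 1538 RPKM). Acta2 gave the largest part of that sum (566 and 1008 RPKM), and Mylk was lower (5.71 and 0.670 RPKM). No measured marker stood at 0. In such pooled tissue, fewer cells of a type and less RNA per cell cannot be told apart, and the part of these markers in the values below was not tested.

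The effector genes stood at 9.55 RPKM or less in both libraries and, apart from Tead3, lay within 1.5-fold between them. The 3 target genes were more abundant, Ctgf less so than Cyr61 and Ankrd1, and went apart. A gene counts as past the size rule when log2((mutant RPKM + 1)/(control RPKM + 1)) is 1 or more in either direction and either library holds 5 RPKM or more. Ctgf and Ankrd1 passed as higher in the mutant library, and 0 members passed as lower. Of 6372 genes at that level, 1.00% were past the rule as higher and 2.73% as lower. Only 4 of the 9 measured members reach 5 RPKM (Tead2, Ctgf, Cyr61 and Ankrd1), and the others could not have passed; the short Tead1 entry described below reaches that level in the control library and did not pass. With no minimum size, 3 of the 9 were higher in the mutant library and 6 lower, a share near the 67.2% lower over all genes. The tally turned to 6 higher and 3 lower once the median of genes of like level was subtracted.

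**Figure D1:**
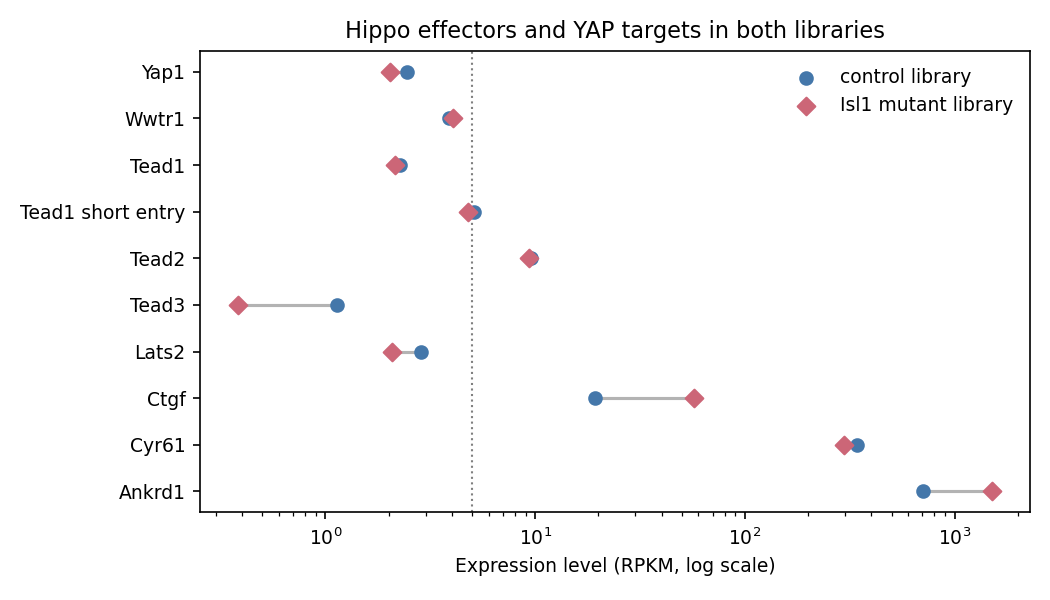
Expression level in RPKM (horizontal, log scale) of each measured member in the control library (blue circles) and the Isl1 mutant library (red diamonds), 1 library each, with a dotted line at 5 RPKM. Ctgf and Ankrd1 lie to the right in the mutant library, Tead3 lies to the left, and the symbols of Wwtr1, Tead1 and Tead2 nearly coincide.

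Yap1 encodes the co-activator YAP and lies on chromosome 9 (7931999 to 8004596, mm9, minus strand). It stood at 2.44 RPKM in control cells and 2.03 RPKM in mutant cells. This was 1.20-fold less in the mutant (interval 1.09 to 1.32, on no fewer than 910 and 819 reads). The log2 ratio was -0.26 as deposited, and 0.08 after the median of genes of like level was subtracted, so its direction turned with that scaling.

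Wwtr1 encodes TAZ, the paralog of YAP, and lies on chromosome 3 (57259571 to 57379832, minus strand). It stood at 3.90 RPKM in control cells and 4.06 RPKM in mutant cells. The ratio was 1.04, with an interval from 0.981 to 1.11 that includes no difference. TAZ transcript was thus the more abundant co-activator transcript per length in both libraries. Wwtr1 made up 61.5% ± 1.85 of the summed Yap1 and Wwtr1 RPKM in control cells and 66.7% ± 1.77 in mutant cells, where ± is the half-width of a 95% interval for counting error. The summed level was 6.34 and 6.09 RPKM. Within the span of Wwtr1 lies the pseudogene Gm16016 on the other strand, over 550 bases, at 1.08 and 0.429 RPKM.

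The TEAD genes encode the factors that carry YAP and TAZ to DNA. Tead2, the TEAD gene best known from early embryos, was the highest of the measured ones (chromosome 7, 52471123 to 52489005, plus strand). It stood at 9.55 RPKM in control cells and 9.29 RPKM in mutant cells, and the interval of the ratio included no difference (0.973, interval 0.938 to 1.01). Its log2 ratio of -0.04 turned to 0.03 with median centring, 0.08 with upper-quartile scaling and 0.12 after subtraction of the level median. At its end 4 bases overlap Cd37 on the other strand.

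Tead1, the TEAD gene required for growth of the embryonic heart wall, had 2 entries on chromosome 7. The long, protein-coding entry (119822832 to 120050319, plus strand) stood at 2.26 RPKM in control cells and 2.14 RPKM in mutant cells. Its ratio was 0.943 (interval 0.894 to 0.995), and the log2 ratio of -0.08 became 0.04 with upper-quartile scaling and 0.26 after subtraction of the level median. The short entry, a processed transcript at the 3′ end of the same gene (120046474 to 120050321), stood at 5.12 and 4.76 RPKM, a ratio of 0.929. The short entry held at least 2171 control reads and 2181 mutant reads, against 2728 and 2781 in the long entry. No source used here says whether the same reads were counted in both. The start of Tead1 also overlaps 2310014F06Rik on the other strand over 741 bases, at 1.37 and 0.644 RPKM.

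Tead3 (chromosome 17, 28468616 to 28487750, minus strand) was the lowest member. It stood at 1.13 RPKM in control cells and 0.382 RPKM in mutant cells, or 2.97-fold lower (interval 2.39 to 3.72, on no fewer than 308 and 112 reads). A gene enters the table only if it reaches 1 RPKM in at least 1 library, and Tead3 did so in the control library alone. Genes whose mean lies below that level therefore had to differ, and the median log2 ratio in its level range was -1.30, beside -1.57 for Tead3. Of 6185 genes between 1 and 5 RPKM in the higher library, 23.8% were at least 2-fold lower by the ratio of RPKM.

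Together the 3 measured TEAD genes summed to 12.9 RPKM in control cells and 11.8 RPKM in mutant cells. Tead2 held 73.8% ± 1.01 of this sum in control cells and 78.7% ± 0.829 in mutant cells. Tead1, taken from the long entry, held 17.5% ± 0.661 and 18.1% ± 0.669, and Tead3 held 8.76% ± 0.911 and 3.23% ± 0.583. The order of the genes was the same in both libraries. With the short Tead1 entry in place of the long one, a choice made after seeing the data, Tead2 held 60.4% and 64.4%.

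Lats2 encodes one of the kinases that phosphorylate YAP and TAZ, and is itself a reported YAP target (chromosome 14, 58260914 to 58377225, minus strand). It stood at 2.85 RPKM in control cells and 2.07 RPKM in mutant cells, or 1.38-fold lower (interval 1.27 to 1.49). The log2 ratio of Lats2 was -0.46, and genes of like level had a median of -0.34. Its paralog Lats1 stood at 1.17 and 0.554 RPKM, 2.11-fold lower, and like Tead3 it reached 1 RPKM in the control library alone. Lats2 held 70.9% ± 2.0 of the summed LATS level in control cells and 78.9% ± 2.13 in mutant cells. Lats2 overlaps Xpo4, a nuclear transport gene on the same strand, over 23354 bases (20.1% of its span). Xpo4 stood at 3.43 and 2.09 RPKM, 1.64-fold lower, and reads of the shared stretch cannot be separated.

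**Figure D2:**
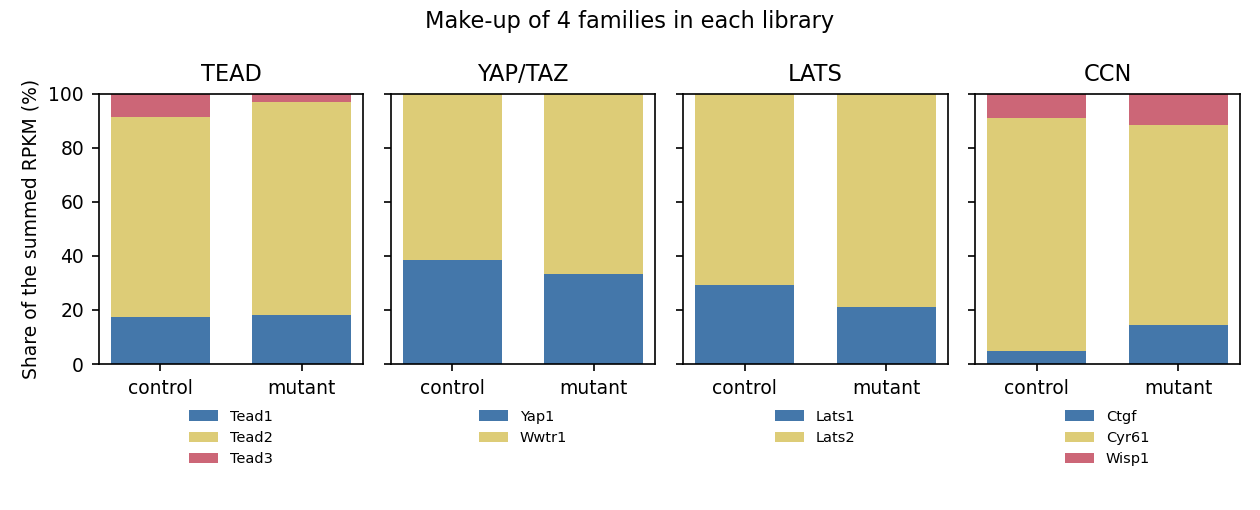
Share of the summed RPKM (vertical, percent) held by each measured gene of the TEAD, YAP/TAZ, LATS and CCN families in the control and Isl1 mutant libraries, 1 library per bar. Tead2, Wwtr1, Lats2 and Cyr61 hold the largest share of their family in both libraries, and the Ctgf share goes from 4.83% to 14.3%.

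Ankrd1 and Cyr61 were the most abundant members in both libraries, and Ctgf came next, at 19.3 RPKM in control cells beside 9.55 RPKM for Tead2. Ankrd1 encodes a cardiac ankyrin repeat protein that binds titin in the sarcomere and responds to stretch (chromosome 19, 36186455 to 36194334, minus strand). It stood at 705 RPKM in control cells and 1505 RPKM in mutant cells. The level was 2.13-fold higher (interval 2.12 to 2.14, on no fewer than 190569 and 439441 reads). In the control library 31 genes had a higher level than Ankrd1, and in the mutant library 16. Among 329 genes with 100 RPKM or more in either library it ranked 16th by ratio. Of 301 genes at 100 RPKM or more in the control library, 3.32% were at least 2-fold higher on the log2(RPKM + 1) scale. Markers of working heart muscle, the cells in which Ankrd1 is chiefly made, summed 1.46-fold higher in the mutant library, and their part in the Ankrd1 value was not tested. That sum rests mostly on a few abundant genes, and single markers ranged from 1.05-fold (Myh6) to 6.16-fold (Nppb) higher. Ankrd23, a further gene of the same titin-binding family, stood at 2.79 and 2.28 RPKM, and overlaps Ankrd39 on the same strand. Ankrd1 held 99.6% of the summed level of these family members in the control library. Ankrd2, the remaining family member, was not measured.

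Ctgf encodes a matricellular protein that modulates growth factor and integrin signals (chromosome 10, 24315248 to 24318489, plus strand). It stood at 19.3 RPKM in control cells and 57.0 RPKM in mutant cells, on at least 5284 and 16871 reads. It was 2.95-fold higher (interval 2.86 to 3.05), and 1.40% of the genes of the table had a higher ratio. Its place in the order of levels went from 2035 genes above it to 618.

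Gm15270, a processed transcript on the opposite strand (24269247 to 24316914), covers the first 1667 bases of Ctgf, which is 51.4% of its span. Its own value was 2.79-fold higher in the mutant library (interval 2.65 to 2.94, on no fewer than 1921 and 5789 reads). The library kit is not stated to mark strand, so reads from the shared stretch cannot be assigned to either gene. With all Gm15270 reads subtracted from those of Ctgf, a calculation added after seeing the data, Ctgf was 3.05-fold higher (interval 2.93 to 3.17). The subtraction takes the read numbers of both entries as true counts and all Gm15270 reads as lying within Ctgf. Neither was checked. Because both entries differed by nearly the same factor, 2.79 and 2.95, it could only return a similar one and does not test the overlap.

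Cyr61 encodes a secreted matricellular protein of the same CCN family as the Ctgf product (chromosome 3, 145309935 to 145312949, minus strand). It stood at 344 RPKM in control cells and 296 RPKM in mutant cells. The level was 1.16-fold lower (interval 1.14 to 1.18), the opposite direction to Ctgf and Ankrd1 under each scaling tried, with log2 ratios from -0.23 to -0.09. Cyr61 had 72 genes above it in control cells and 92 in mutant cells. No other gene of the table overlaps Cyr61, Ankrd1, Yap1 or Tead3.

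Within the CCN family the balance of transcripts differed between the libraries while their sum was nearly equal. The summed level of Ctgf, Cyr61 and Wisp1 was 399.6 RPKM in control cells and 399.8 RPKM in mutant cells. Ctgf held 4.83% ± 0.132 of it in control cells and 14.3% ± 0.220 in mutant cells. Cyr61 held 86.0% ± 0.200 and 74.1% ± 0.283. Wisp1, a CCN gene known as a Wnt target, stood at 36.7 and 46.3 RPKM, 1.26-fold higher (interval 1.24 to 1.29). The level of Cyr61 was 17.8 times that of Ctgf in the control library and 5.20 times in the mutant library. Nov, Wisp2 and Wisp3 of the family were not measured.

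Markers of other cells that make Ctgf went both ways between these libraries. The fibroblast and mesenchyme markers summed 2.29-fold lower in the mutant library, the smooth muscle markers 1.61-fold higher and the epicardial markers 1.29-fold higher. Within the epicardial list Krt19 and Krt18 rose most, while Wt1, Msln and Aldh1a2 were lower. Within the smooth muscle list Mylk was lower. The part of these lists in the Ctgf value was not tested.

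The genes whose pair of values lay nearest to that of Ctgf were Mif, a cytokine gene, Plod2, a collagen lysyl hydroxylase gene, and Grhpr, a glyoxylate reductase gene. Likeness was the distance between the log2 levels of both libraries, over 5659 named protein-coding genes that reach 5 RPKM. The distances were 0.47, 0.54 and 0.60. Mif stood at 26.2 and 51.0 RPKM, Plod2 at 20.4 and 39.4 RPKM, and Grhpr at 26.1 and 42.9 RPKM. Their ratios of 1.95, 1.93 and 1.64 were all smaller than that of Ctgf. With 2 libraries this likeness rests on 2 values per gene.

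**Figure D3:**
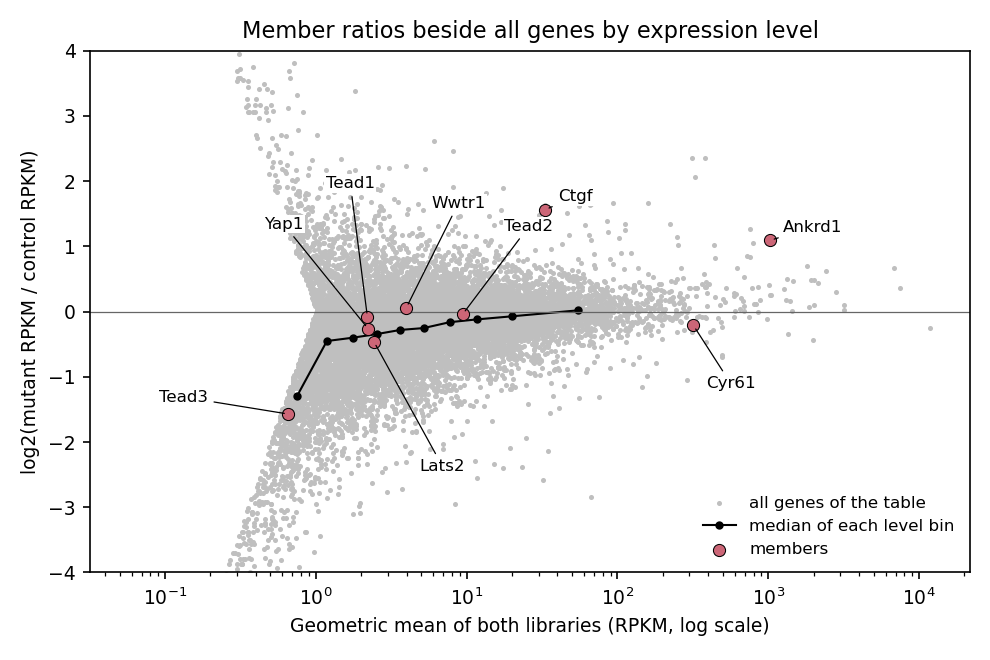
Log2 ratio of mutant to control RPKM (vertical) against the geometric mean of both libraries (horizontal, RPKM, log scale) for all 12557 genes (grey), with the median of each of 10 level bins (black line) and the measured members (red). Ctgf and Ankrd1 lie well above the line. Cyr61 (-0.23 from the median of its bin) and the effector genes (-0.27 for Tead3 to 0.34 for Wwtr1) lie nearer to it. On the vertical axis 109 genes beyond 4 are not drawn.

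The other genes of the pathway were compared by 3 lists, though the list of core kinases and adaptors also holds the member Lats2. Of 19 core kinases and adaptors, 17 were measured, of which 16 were lower in the mutant library and 1 higher, beside 67.2% lower over all genes. With the level median subtracted the tally was 7 higher and 10 lower. Their median log2 ratio was -0.46, which is the value of Lats2 itself. Over all genes the median was -0.22, and for the level ranges the core genes lie in it was -0.28. Among the 7 that reach 5 RPKM, 1 was past the size rule as lower and 0 as higher, beside 2.73% and 1.00% of all genes at that level. That gene was Taok3, a kinase gene upstream of MST and LATS, at 7.32 and 2.95 RPKM, 2.48-fold lower (interval 2.31 to 2.67). Its paralog Taok2 stood at 6.20 and 2.70 RPKM, 2.30-fold lower by RPKM but short of the rule with its pseudocount.

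The MST kinases themselves differed little. Stk3, the gene of MST2, stood at 25.7 and 23.2 RPKM, and Stk4, that of MST1, at 1.11 and 0.919 RPKM. Stk4 overlaps Tomm34 on the other strand over 848 bases, at 10.8 and 9.90 RPKM. Mob1a, which encodes an adaptor that activates LATS, stood at 6.84 and 3.99 RPKM, 1.71-fold lower, and Stk38, a LATS-related kinase gene, at 12.3 and 9.72 RPKM. The single gene of this list with a higher value was Nf2, which encodes the upstream activator merlin, at 7.74 and 9.17 RPKM, 1.18-fold higher (interval 1.14 to 1.24).

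By the ratio of RPKM without a pseudocount, 6 of the 17 measured core genes were at least 2-fold lower, beside 14.0% of all genes. At 5 RPKM or more the count was 2 of 7, beside 4.50% of genes at that level, and below it 4 of 10, beside 23.8%. By the same measure 5 of 30 regulators and 5 of 18 other target genes, described below, were at least 2-fold lower. At 5 RPKM or more those counts were 0 of 12 and 3 of 8. The lowest ratios of the core list were those of Map4k4 and Map4k2, kinase genes that can act on LATS in parallel to MST, named here after their values were seen. Map4k4 stood at 2.51 and 0.428 RPKM, 5.86-fold lower (interval 4.95 to 6.97, on no fewer than 884 and 163 reads). Map4k2 stood at 2.70 and 0.504 RPKM, 5.35-fold lower (interval 4.43 to 6.50). Map4k2 overlaps Gm14966 on the other strand over 94 bases. Of the same kinase family, Map4k3 stood at 4.82 and 2.21 RPKM, 2.18-fold lower, and Tnik at 1.71 and 0.863 RPKM, 1.98-fold lower. Map4k5 stood at 2.70 and 2.32 RPKM, 1.17-fold lower.

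Of 37 upstream and junctional regulators, 30 were measured, with 23 lower and 7 higher, beside 67.2% lower over all genes. With the level median subtracted, 14 were lower and 16 higher. The median log2 ratio was -0.29, beside -0.34 for the level ranges they lie in, and 0 of the 12 at 5 RPKM passed the size rule in either direction. Btrc, the ubiquitin ligase subunit gene that marks phosphorylated YAP for destruction, stood at 9.64 and 6.07 RPKM, 1.59-fold lower. Amotl2, an angiomotin gene whose protein binds YAP and which is also a reported YAP target, stood at 14.1 and 11.1 RPKM. Ctnna3, an alpha-catenin gene of the heart muscle junction, stood at 6.56 and 5.21 RPKM, and Limd1, whose protein restrains LATS, at 7.33 and 5.94 RPKM. Vgll4, whose protein competes with YAP for TEAD, was measured at 19.3 and 15.9 RPKM and is named after its values were seen.

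Of 27 other reported YAP and TAZ target genes, 18 were measured, and 15 of them were lower in the mutant library and 3 higher, beside 67.2% lower over all genes. With the level median subtracted, 11 were lower and 7 higher. Their median log2 ratio was -0.33, beside -0.28 for the level ranges they lie in. Of the 8 that reach 5 RPKM, 2 were past the size rule as lower and 0 as higher, beside 2.73% and 1.00% of all genes at that level. Myc, a growth-promoting transcription factor gene, stood at 8.89 and 1.98 RPKM, 4.49-fold lower (interval 3.35 to 6.11, on no fewer than 237 and 57 reads). Thbs1, the gene of the matrix protein thrombospondin-1, stood at 6.19 and 2.15 RPKM, 2.88-fold lower (interval 2.71 to 3.05). Rbms3, an RNA-binding protein gene, stood at 8.76 and 4.20 RPKM, 2.09-fold lower, short of the rule, and overlaps Gm17396 on the other strand. The 3 genes with a higher value were Edn1, the endothelin-1 gene, at 1.31 and 2.21 RPKM, Jub, a LIM adaptor gene, at 1.65 and 1.93 RPKM, and Birc5, the survivin gene, at 4.49 and 4.77 RPKM. Amotl2, Ptpn14 and Jub stand in both this list and that of the regulators.

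**Figure D4:**
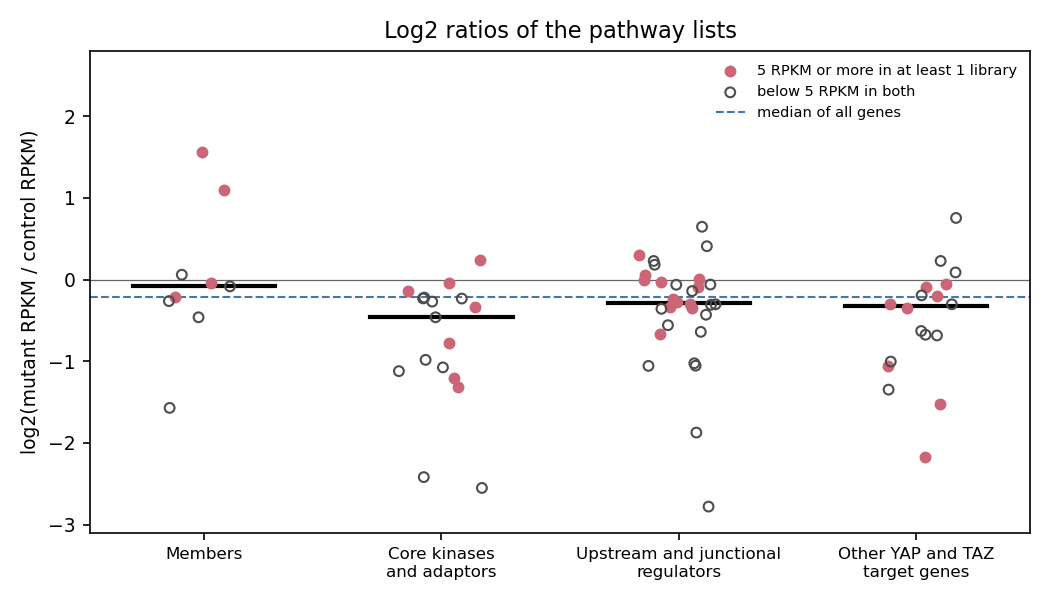
Log2 ratio of mutant to control RPKM (vertical) for each measured gene of the member set and of 3 pathway lists, with black bars at list medians and a dashed line at the median of all genes. Ctgf and Ankrd1 are the points above 1 in the member column, and 0 points of the other columns lie there.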

How the data were processed

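Sorted sinoatrial node cells of 1 control and 1 Isl1 mutant pool were sequenced in 90 bp read pairs from 10 ng of total RNA, per the labels' protocols. Per the submitters' processing notes, Trim Galore, FastQC, TopHat2 and Bowtie2 were used with the build mm9. The program behind the gene table is not given in these sources. The deposited values by the authors, whose unit the header does not name, were taken as RPKM, because small RNA genes of 1 exon hold whole multiples of 1 read (284 of 284 control values and 276 of 284 mutant values within 0.01 reads). Such genes cannot show which exons of other genes were counted, and that these were constitutive exons was assumed. The deposited log2 ratio by the authors matched the ratio of both RPKM values (largest difference 1.89e-07). A further deposited column, a signed-fold score, was left aside.

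Library totals came from these steps. Reads per gene are the smallest whole numbers and exon length that give both values, so true numbers can be multiples of them. Each fold has an exact conditional (Clopper-Pearson) interval. Share intervals propagate counting error. The size rule, with a pseudocount of 1 on RPKM, understates the change of low genes. Members and lists were chosen with earlier results of these data known. Named genes were Isl1, the members, genes overlapping them, list genes past the size rule or among the 4 largest ratios at 5 RPKM, both small families, and the 3 genes nearest to Ctgf. Stk3, Stk4, Lats1, Nf2, Map4k2, Map4k3, Map4k4, Map4k5, Tnik, Vgll4, Edn1, Jub, Birc5, Hcn4 and Bmp4, and genes overlapping them, fall outside this rule and were named after their values were seen. The same holds for the markers Krt18, Krt19, Wt1, Msln, Aldh1a2, Acta2, Mylk, Actc1, Myh6 and Nppb. Other repeated symbols were taken at their highest mean. Alternatives were pseudocounts, floors, folds and scalings. Scripts (Python 3.11.15, SciPy 1.17.1) were tested on simulated data. Protein sequences were not used here.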

Additional observations from a re-analysis of the deposited data

How the results depend on the processing

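With 1 library per genotype no replicate could be left out. No paired analysis was possible because each group has 1 library and the values come from no test. Ctgf and Ankrd1 stayed past the size rule, with 0 members lower, under each floor, fold, pseudocount and scaling tried. Settings were changed singly, so either the floor or the pseudocount kept Tead3 from passing each time. With neither, by the plain ratio of RPKM, 1 member was at least 2-fold lower, namely Tead3. The count of 0 lower is therefore partly set by the rule. Over all genes the counts of 64 higher and 174 lower became 239 and 756 at 1.5-fold and 139 and 503 with a floor of 1 RPKM or none. They became 84 and 287 without a pseudocount, 79 and 271 with 0.1, and 92 and 88 with level bins centred. The main median log2 ratio over measured members, -0.08, became 0.039 with upper-quartile scaling, 0.12 with level bins centred and 0.53 over the 4 members at 5 RPKM. The regulator median of -0.29 became 0.040 with level bins centred. For core genes the median of -0.46 became -0.34 with upper-quartile scaling, -0.12 with level bins centred, -0.33 with a pseudocount of 1 and -0.34 at 5 RPKM. Apart from the value at 5 RPKM, these core medians are the values of the member Lats2. For the other targets -0.33 became -0.25 with median centring, -0.20 with upper-quartile scaling and -0.15 with level bins centred. Tead2 held 80.8% and 81.3% of the TEAD sum when Tead3 was left out, and 60.4% and 64.4% with the short Tead1 entry. Beyond the construction of each alternative the cause was not tested. Over 51 further values of single member entries, 27 stayed within the counting interval and 24 moved beyond it. At fewer than 500 reads, as for Tead3, the interval of a fold is wide.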
